A study of Mus musculus with 9 samples.

Results

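The comparison described here is between sciatic nerves of mice that lacked both copies of Tardbp in Cnp-Cre-expressing cells (cKO) and nerves of mice that lacked 1 copy (cHet). It uses 6 of the 9 RNA-seq libraries of the study, 3 cKO and 3 cHet, chosen by the sample titles. Each library came from the sciatic nerves of 1 C57BL6 mouse aged 21 days. The cHet mice were Cnp-Cre; Tardbp-fl/+, and the cKO mice were Cnp-Cre; Tardbp-fl/fl, so that both groups carried Cnp-Cre and differed in the second floxed allele. Cnp-Cre expresses the recombinase from the locus of a myelin enzyme, which is active in myelinating glia, so that the neurons, fibroblasts, vessels and immune cells of the nerve were not its target. The other 3 libraries came from Tardbp-fl/fl mice without Cre (control), and their values are given beside the rest without a test. Each of the 3 groups held 2 female mice and 1 male.

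TDP-43, the protein encoded by Tardbp, is an RNA-binding protein of the nucleus that binds UG-rich RNA and keeps cryptic exons, stretches of introns that resemble exons, out of mature mRNA. When it is missing, such exons can enter the mRNA, often with a stop codon that exposes the mRNA to nonsense-mediated decay. Schwann cells are the glia that wrap peripheral axons in myelin. They make cholesterol and fatty acids in bulk for the myelin membrane, attach to the axon on either side of each node of Ranvier at the paranodal junction through the glial isoform of neurofascin, and after nerve injury turn to a repair state marked by secreted cytokines and growth factors.

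The labels contradict themselves on 3 of the 6 libraries, whose genotype field does not match the title. The library titled cHet replicate 1 here carries the genotype Tardbp-fl/fl in that field, and those titled cKO replicates 1 and 2 carry Cnp-Cre; Tardbp-fl/+. The titles were used throughout. By title the groups did not overlap for any gene called below, so that leaving out libraries could not reverse its direction. Without these 3 libraries each of the 178 genes called below kept its direction, but only 1 kept its call, 1810010D01Rik, and every other gene named here as past the test lost it. The deposited values are TPM (a transcript abundance corrected for length and library size) that had been scaled further, since they summed to 934932 to 1158094 per library, and the number of reads behind a value is unknown. Pearson's r over the log2 values of the tested genes, which are not independent replicates, was 0.944 to 0.975 between cHet libraries, 0.947 to 0.973 between cKO libraries and 0.932 to 0.976 across the groups. All 7 Schwann cell markers were detected in every library, with a summed value of 69807 to 100726 in the cHet and 55987 to 74593 in the cKO. None of these 7 (Sox10, Mbp, Egr2, Prx and S100b among them) passed the test between the groups. Without overlap between the groups, S100b and Egr2 were higher in the cKO and Mbp lower, as 13.4% and 11% of all genes were. Markers of other tissues varied most between single libraries. The summed value of 19 neuronal transcripts was 1816 in cHet replicate 1 and 1998 in cKO replicate 3, against 190.0 to 444 in the other 4 libraries of the comparison. For 16 skeletal muscle transcripts the sum was 11358 in cKO replicate 3, 906 in cKO replicate 2 and 99.6 to 461 in the other 4, and the list's median log2 fold change between the groups, 2.80 with no member past the test in limma (1 at an unadjusted p under 0.05), was 1.31 without cKO replicate 3. The 14 adipocyte transcripts summed to 114 in cHet replicate 2 and to 507 to 777 in the other libraries of the comparison. In the control nerves they summed to 3156, 148 and 4105. Across all 12 marker lists (those plotted by library) 1 member passed the test, Hapln2, a link protein of nodal matrix in the oligodendrocyte list. Its values were 1.13, 0.821 and 1.05 in the cHet, 4.17, 6.40 and 5.19 in the cKO and 0.881, 2.75 and 3.64 in the control, and the adjusted p was 0.0197. Markers listed at 0 in some of the 6 libraries were Chat (in 4), Slc18a3 (in 3), Ucp1 (in 2), and Myh2 and Olig2 (in 1 each), and Chat, Slc18a3, Olig2, Ermn, Mog and Ms4a2 were below 0.5 in all 6.

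**Figure D1:**
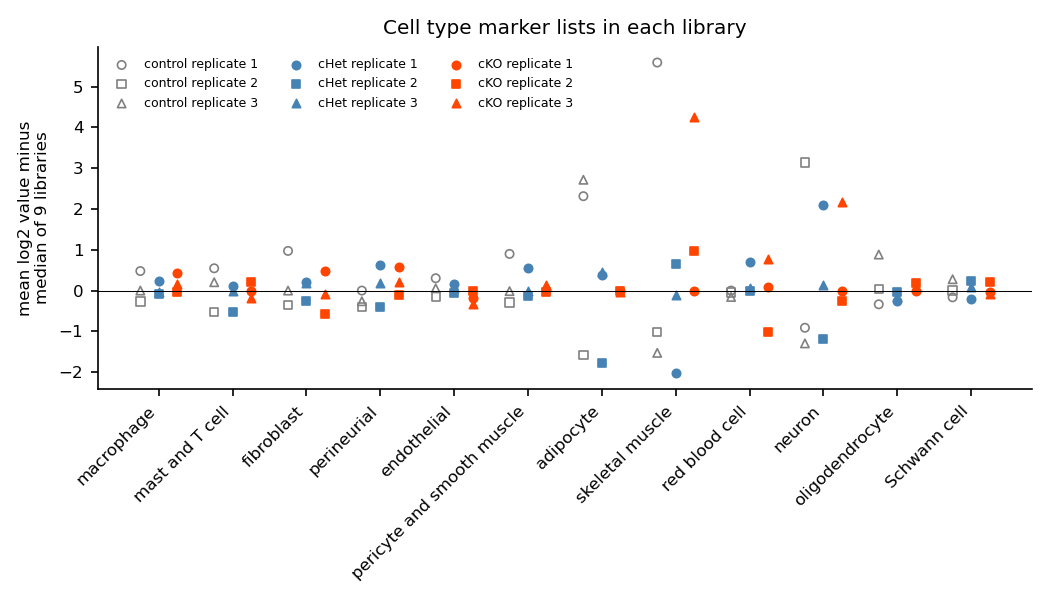
Level of 12 cell type marker lists in each of the 9 libraries, where each list's average of log2(value + 0.5) is set relative to its median library, with color for the group and symbol shape for the replicate. Skeletal muscle markers stand highest in control replicate 1 and cKO replicate 3, and neuron markers in control replicate 2, cHet replicate 1 and cKO replicate 3. The average of the Schwann cell list is close to 0 in all 9, which does not show its single members.

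Tardbp itself was lower in every cKO nerve than in every cHet nerve. The cHet nerves had 177, 179 and 186 normalized TPM and the cKO nerves 103, 94.2 and 103, including the 2 cKO libraries whose genotype field gives the cHet genotype. The control nerves had 185, 194 and 217. The cKO mean was 55.4% of that of the cHet, or -0.85 as a log2 fold change (95% confidence interval -1.04 to -0.66, adjusted p = 0.00948), and the two-sided exact permutation test gave p = 0.1, the smallest value that 3 against 3 mice allow. Leaving out 1 library at a time gave adjusted p from 0.0314 to 0.0777, above the threshold without cHet replicate 2, cHet replicate 3 or cKO replicate 1. Without the 3 libraries whose genotype field differs it was 0.0875. The gene lies on the minus strand of chromosome 4 at 148612382 to 148627019 (GRCm38). Since a value covers the whole gene and the whole nerve, the floxed exon was not measured apart, and fewer cells of a type cannot be told apart from less RNA per cell here or in any value below. Cnp, whose locus drives Cre in both groups, had 640.5, 849 and 803 in the cHet and 554, 799 and 498 in the cKO. These ranges overlapped, and the difference in log2 was -0.33 (95% confidence interval -0.82 to 0.17, two-sided exact permutation test p = 0.2).

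Of 14909 genes with a mean value of at least 1 over the 6 libraries, 178 passed the test between cKO and cHet (limma on log2(value + 0.5), Benjamini-Hochberg adjusted p under 0.05), which is 1.19% of the genes tested. Of these, 104 were higher in the cKO (0.698%) and 74 lower (0.496%). With the 6 libraries rescaled to the same sum, which moved the median of all genes by -0.135 in log2, the split was 91 higher and 172 lower, and with quantile normalization 111 and 115. The median of all genes was 0.02 in log2 in the fit reported here. The 3 cKO and 3 cHet values did not overlap for any of the 178 genes, a separation seen for 24.4% of all genes tested. An increase of at least 1 in log2 was found for 71 genes and a decrease of at least 1 for 25. The sign of the difference was kept for every one of the 178 genes in each of the 20 alternatives in which it was tested. Only the other scalings of the libraries and the groups taken from the genotype field could have reversed a sign. In the remaining alternatives it could not have come out otherwise, because the groups did not overlap and were balanced for sex. The calls themselves depended on single libraries. The number of genes called was 93 without cHet replicate 1, 29 without cHet replicate 2, 25 without cHet replicate 3, 22 without cKO replicate 1, 51 without cKO replicate 2 and 41 without cKO replicate 3, and 20 of the 178 genes (18 higher, 2 lower) were called in each of these 6 fits. Without both libraries high in neuron markers, cHet replicate 1 and cKO replicate 3, 14 of the 178 were still called, 12 of them among these 20. Without the 3 libraries whose genotype field differs, 1 cKO and 2 cHet libraries were left, the lone cKO library was taken to vary like the others, and 18 genes passed, of which 1 was among the 178 and among the 20. That lone library is cKO replicate 3, which had the skeletal muscle sum of 11358 and the neuronal sum of 1998. It is also the only cKO library by the genotype field. With groups taken from the genotype field instead (1 cKO and 4 cHet libraries) 115 passed and 0 of the 178 were among them by limma, where 1152 genes had an unadjusted p under 0.05.

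**Figure D2:**
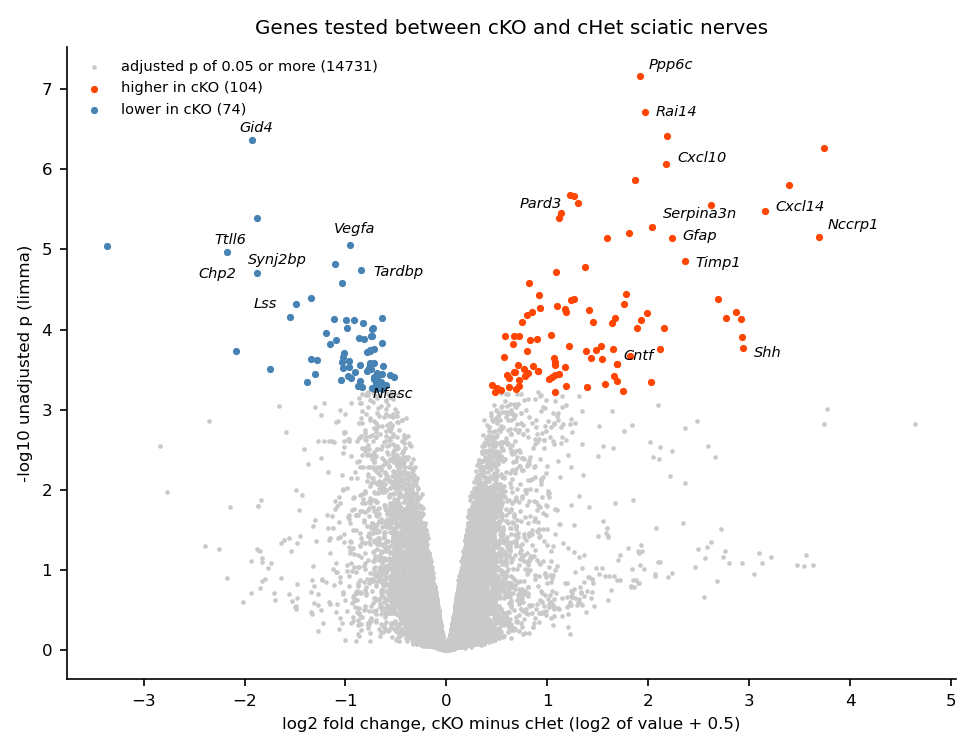
Log2 fold change (cKO minus cHet, on log2(value + 0.5)) against -log10 of the unadjusted p from limma for the 14909 genes tested, 1 point per gene. Of the 104 genes higher in the cKO 71 lie at 1 or more, of the 74 lower genes 25 lie at -1 or less, and Tardbp stands at -0.85.

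Most of the 15 largest increases were in genes that were low in the cHet and control nerves. Nccrp1, an F-box-like protein of epithelia, had 0.202, 0.0345 and 0.160 normalized TPM in the cHet, 7.11, 10.8 and 5.72 in the cKO and 0, 0.123 and 0.0650 in the control (log2 fold change 3.69, adjusted p = 0.00515). For the genes that follow, the first number in parentheses is likewise the log2 fold change of cKO over cHet. It overlaps Samd4b on the same strand, so that reads of the pair may be shared out by the counting. Cxcl14, a chemokine, had 3.86, 3.44 and 2.36 in the cHet and 25.3, 32.7 and 40.4 in the cKO (3.16, adjusted p = 0.00371), against 3.80, 4.13 and 4.31 in the control. For both genes the lowest cKO nerve was above the highest of the 6 cHet and control nerves. Shh, the secreted morphogen sonic hedgehog, which Schwann cells make after injury, had 1.53, 0.406 and 0.947 in the cHet and 7.97, 8.06 and 16.3 in the cKO (2.94, adjusted p = 0.0292). The control nerves had 0.520, 4.70 and 0.353 of Shh, with replicate 2 nearer to the cKO than to the other control nerves. In each group the highest Shh value was in the library highest in neuron markers, and the part of neuronal RNA in it was not tested. The adjusted p of Shh in limma was 0.0687 without both libraries high in neuron markers. It was 0.0772 when all 9 libraries shared 1 model.

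Genes of the response to nerve injury were among the same 15. Timp1, an inhibitor of matrix metalloproteinases, had 3.54, 2.70 and 4.43 in the cHet, 16.6, 19.7 and 24.6 in the cKO and 5.70, 4.22 and 3.50 in the control (2.36, 95% confidence interval 1.86 to 2.87, adjusted p = 0.00831). Gfap, the intermediate filament of non-myelinating and repair Schwann cells, had 3.76, 4.54 and 3.25 in the cHet and 16.03, 22.7 and 21.6 in the cKO (2.24, adjusted p = 0.00515). Its control values were 2.62, 4.26 and 17.5, so that control replicate 3 lay within the cKO range, and the adjusted p with all 9 libraries was 0.0961. Control replicate 3 was also highest in the oligodendrocyte list, whose average log2 value there was 0.883 above its median library. The next highest library, cKO replicate 2, was at 0.174. What this means for the Gfap value was not tested. Serpina3n, a secreted inhibitor of serine proteases, had 40.1, 27.3 and 30.0 in the cHet and 120.3, 137 and 143 in the cKO, a 4.11-fold higher mean (2.04 in log2, adjusted p = 0.00454). Cxcl10, a chemokine that draws T cells, had 4.62, 4.23 and 3.94 in the cHet and 23.5, 18.8 and 21.1 in the cKO (2.18, adjusted p = 0.00214). Timp1, Gfap, Serpina3n, Cxcl10 and Cxcl14 were each called in all 6 fits that left out 1 library. Serpina3n, Cxcl10 and Cxcl14 also kept the call without both libraries high in neuron markers and Timp1 and Gfap lost it, and none of the 5 kept it without the 3 libraries whose genotype field differs.

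The remaining 8 of the 15 were a mixed group. Gpr137c, a lysosomal membrane protein related to G protein-coupled receptors, had 5.43, 5.44 and 5.45 in the cHet, the narrowest of these groups, and 23.6, 26.7 and 29.4 in the cKO (2.18, adjusted p = 0.00163). Olfr578, an olfactory receptor gene, had 0.754, 0.790 and 1.07 in the cHet and 7.56, 8.53 and 7.62 in the cKO (2.62, adjusted p = 0.00344). For Plk5, a polo-like kinase without proliferative role, the values were 5.54, 4.01 and 7.39 in the cHet and 20.8, 27.9 and 21.8 in the cKO (1.99, adjusted p = 0.0192). All of the other 5 lay below 1.5 normalized TPM in every cHet nerve. They were Mt4, a metallothionein of stratified epithelia listed at 0 in 2 cHet nerves and at 3.14, 3.13 and 4.12 in the cKO, Gadl1, a decarboxylase, with 0.959, 0.2996 and 0.452 in the cHet and 5.33, 6.17 and 7.14 in the cKO, Gabrr2, a GABA receptor subunit, with 1.14, 1.19 and 0.702 in the cHet and 5.99, 8.19 and 4.76 in the cKO, Otop1, a proton channel, with 0.358, 0.182 and 0.410 in the cHet and 2.68, 3.74 and 2.74 in the cKO, and Ak7, an adenylate kinase of cilia, with 0.677, 0.651 and 0.155 in the cHet and 3.13, 4.05 and 3.18 in the cKO. Their log2 fold changes lay between 2.03 and 2.77 and are understated by the added 0.5.

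The 15 largest decreases included genes that were well expressed in the cHet. Gid4, the substrate receptor of a ubiquitin ligase, fell from 46.5, 52.7 and 47.1 in the cHet to 12.7, 13.3 and 11.3 in the cKO (25.5% of the cHet mean, log2 fold change -1.93, 95% confidence interval -2.17 to -1.69, adjusted p = 0.00163). The control values of 49.2, 50.1 and 51.7 all lay within the cHet range. The gene spans positions 60417145 to 60450927 on the plus strand of chromosome 11 (GRCm38), and it was 1 of the 2 lower genes called in every fit that left out 1 library. The other was Adgb, androglobin, an oxygen-binding globin, with 12.1, 15.5 and 14.1 in the cHet and 3.74, 3.29 and 3.24 in the cKO (-1.87, adjusted p = 0.00381). Ttll6, which adds glutamate chains to tubulin, had 6.81, 9.95 and 8.05 in the cHet and 1.51, 1.45 and 1.33 in the cKO, 17.3% of the cHet mean (-2.17, adjusted p = 0.00674). Its neighbor on chromosome 11, Calcoco2, an autophagy receptor, had 4.09, 5.66 and 3.64 in the cHet and 1.02, 0.479 and 0.536 in the cKO (-2.08, adjusted p = 0.0294). These genes lie on opposite strands with 21822 bp between them.

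Membrane and signaling proteins made up much of the rest. Chp2, a calcium-binding partner of sodium-proton exchangers, had 74.4, 107 and 88.5 in the cHet and 21.3, 29.4 and 21.8 in the cKO (-1.88, adjusted p = 0.00988). Kcnmb4, a regulatory subunit of large-conductance potassium channels, had 68.0, 81.7 and 73.2 in the cHet and 25.6, 35.2 and 27.0 in the cKO (-1.34, adjusted p = 0.0168). Sgcd, delta-sarcoglycan, a member of the dystrophin-associated complex that Schwann cells hold on their outer surface, had 50.6, 65.8 and 54.8 in the cHet and 18.3, 15.7 and 24.3 in the cKO (-1.55, adjusted p = 0.0197). For each of the 3 the highest cKO nerve stood below the lowest of the 6 cHet and control nerves. Cnmd, chondromodulin, an inhibitor of vessel growth, had 27.0, 37.2 and 26.3 in the cHet and 6.14, 12.2 and 8.12 in the cKO. Npr3, the clearance receptor for natriuretic peptides, had 15.1, 17.1 and 12.9 in the cHet and 6.20, 7.12 and 5.60 in the cKO, and Pcsk6, a proprotein convertase, had 16.7, 21.7 and 21.0 in the cHet and 9.06, 8.21 and 9.15 in the cKO. The log2 fold changes of these last 3 were -1.75, -1.19 and -1.12. B4galnt3, a glycosyltransferase, Lman1l, a lectin of the secretory pathway, and Zfhx2, a zinc finger homeobox factor, fell by 1.30, 1.38 and 1.29 on the log2 scale, and Lss, also among the 15, is an enzyme of cholesterol synthesis.

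**Figure D3:**
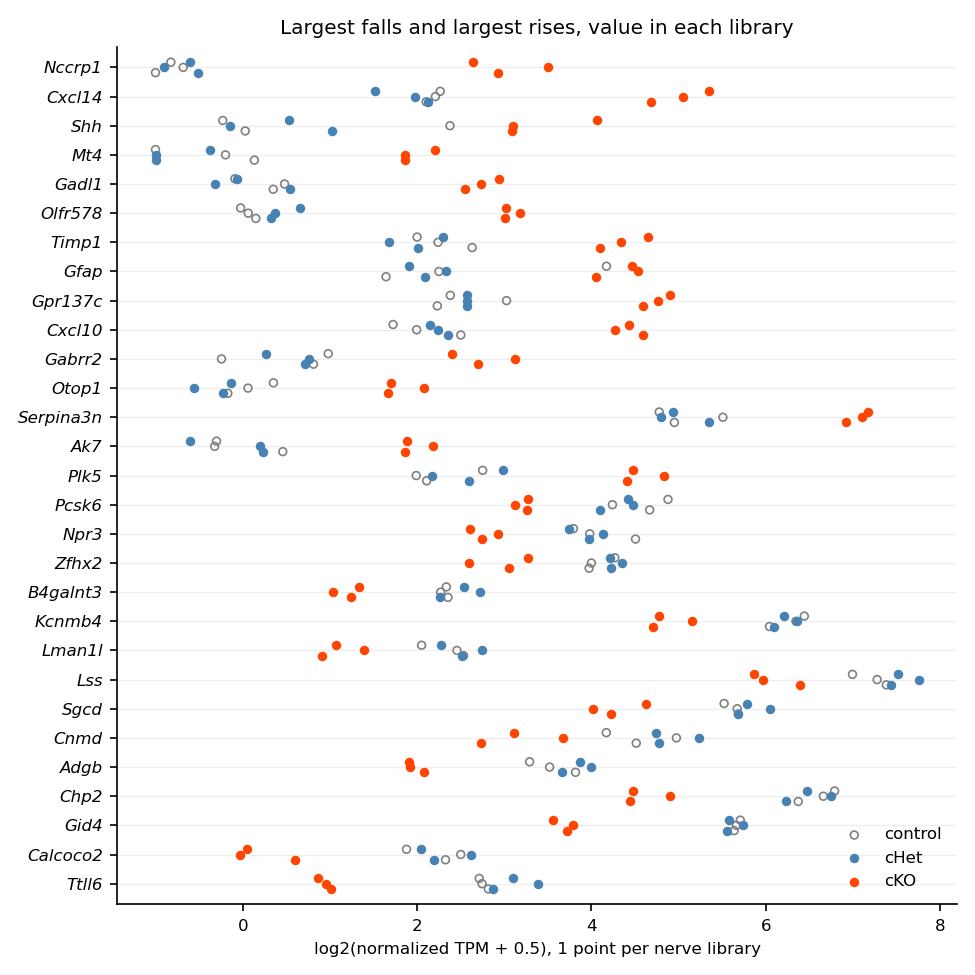
Value of 14 of the 15 largest decreases and of the 15 largest increases among genes past the threshold in each of the 9 libraries, on log2(normalized TPM + 0.5), with 1 point per nerve. The 3 cKO points of a gene stand apart from its 3 cHet points in every row, 1 control nerve lies among the cKO points of Gfap, and 1 lies between the groups for Shh.

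Genes of cholesterol synthesis were lower in the cKO nerves. Of 24 genes of cholesterol synthesis, uptake and its control, 23 were tested, 10 passed the test as lower in the cKO and none as higher, against 0.496% of all genes called lower. The median log2 fold change of the 23 was -0.76, beside 0.02 for all genes, and all 23 were negative, with values from -1.49 to -0.51. In each of the 23 the highest cKO nerve was below the lowest cHet nerve, a separation found in that direction for 11% of all genes. The pathway begins at acetyl-CoA and passes through mevalonate, squalene and lanosterol to cholesterol. Lanosterol synthase (Lss), which closes the sterol rings, had the largest change of the list, with 172, 215 and 182 in the cHet and 83.5, 62.0 and 57.6 in the cKO (-1.49, 95% confidence interval -1.88 to -1.11, adjusted p = 0.0178) against 166, 154 and 127 in the control. Stard4, which carries cholesterol between membranes, had 61.4, 66.4 and 57.4 in the cHet and 40.6, 35.2 and 35.9 in the cKO (-0.72, adjusted p = 0.0292), and 68.1, 54.3 and 36.9 in the control, with replicate 3 within the cKO range.

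Further decreases in the list were spread along the pathway. Fdps, which makes farnesyl diphosphate, had 632, 761 and 674 in the cHet and 339.9, 416 and 301 in the cKO (-0.98, adjusted p = 0.0398). Squalene epoxidase (Sqle) had 153, 194 and 177 in the cHet and 104, 107 and 96.9 in the cKO (-0.76, adjusted p = 0.0352). The late enzymes Hsd17b7, Sc5d and Dhcr7 had log2 fold changes of -0.74, -0.85 and -0.76 (adjusted p = 0.0469, 0.0358 and 0.0358). The 13 members that did not pass had log2 fold changes between -0.88 (Hmgcs1) and -0.51 (Pmvk), each with an unadjusted p under 0.05, as 7.4% of all genes had in that direction. Srebf2, which encodes the transcription factor that switches these genes on when sterols are low and is in another list, had 119, 133 and 121 in the cHet and 94.3, 98.0 and 95.8 in the cKO (-0.37, adjusted p = 0.0854). The number of called members was 6 without cHet replicate 1, 1 without cKO replicate 1 or cKO replicate 2, and 0 without cHet replicate 2, cHet replicate 3 or cKO replicate 3. It was also 0 without the 3 libraries whose genotype field differs. At an unadjusted p under 0.05, by limma, all 23 were lower with the 6 libraries. All 23 were negative in each of the 20 alternatives, with medians from -1.05 to -0.64. Except under the other scalings and with groups from the genotype field, the lack of overlap and the balance of the sexes fixed this sign in advance. The 13 mitochondrial-encoded transcripts all had log2 fold changes above 0, with summed values of 119557 to 125866 in the cKO and 77845 to 90147 in the cHet, and their part in the result was not tested.

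**Figure D4:**
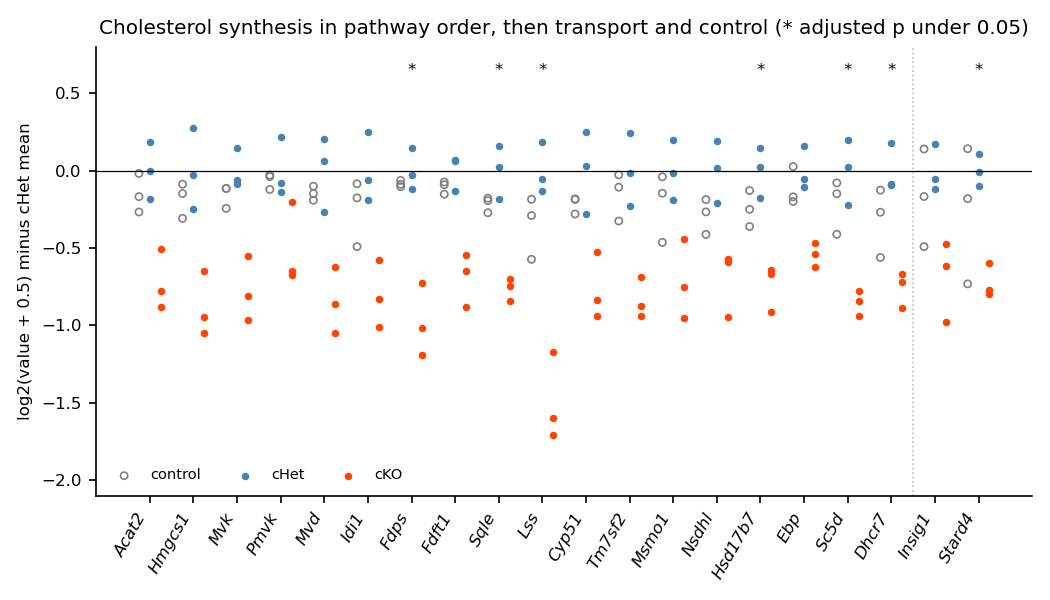
Log2(value + 0.5) minus the cHet mean for 20 of the 23 tested genes of the cholesterol list, with the enzymes in pathway order, the 2 genes of transport and control to the right of the dotted line, and 1 point per nerve. All cKO points lie below the cHet points of the same gene, and stars mark the 7 of these genes with an adjusted p under 0.05.

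Promoter sequence was available for 16 of the 24 list members, from RefSeq on GRCm38.p6, as the 300 bases that run from 250 before to 50 after the start of transcription. Letters were searched for on both strands. The box CCAAT, which binds the factor NF-Y and is known to act beside sterol regulatory elements, was found for 15 of the 16 genes (93.8%), all except Acat2, against 41.1% of all genes with a promoter and 42.6% of those tested. Among the 47 genes called lower that are not in the list and had a promoter, 14 (29.8%) held it, and among the 73 called higher, 28 (38.4%). A classical sterol regulatory element, TCACNCCAC, was found in 1 of the 16 (Hmgcs1), against 1.44% of all genes with a promoter. These matches describe letters in a window and not binding. The promoters of the 4 called members with an entry are shown because these genes are among the decreases named above. CCAAT or its reverse complement ATTGG is in capitals, and whether the box bears on the decreases was not tested. For Dhcr7, which has several starts, the start whose window holds the box is shown.
Lss, chr10:76531355-76531654, plus strand: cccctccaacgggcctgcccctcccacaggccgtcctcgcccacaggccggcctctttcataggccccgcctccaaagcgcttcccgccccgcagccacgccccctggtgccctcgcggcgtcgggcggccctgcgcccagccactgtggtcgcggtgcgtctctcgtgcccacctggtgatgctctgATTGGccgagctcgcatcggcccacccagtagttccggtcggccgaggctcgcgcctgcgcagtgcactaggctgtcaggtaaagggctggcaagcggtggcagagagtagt
Hsd17b7, chr1:169969156-169969455, minus strand: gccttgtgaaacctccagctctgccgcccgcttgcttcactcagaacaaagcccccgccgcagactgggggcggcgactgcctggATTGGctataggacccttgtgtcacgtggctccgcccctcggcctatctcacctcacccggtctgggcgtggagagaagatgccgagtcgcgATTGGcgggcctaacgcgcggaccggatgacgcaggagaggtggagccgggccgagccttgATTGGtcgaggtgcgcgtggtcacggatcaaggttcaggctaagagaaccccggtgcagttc
Sc5d, chr9:42264251-42264550, minus strand: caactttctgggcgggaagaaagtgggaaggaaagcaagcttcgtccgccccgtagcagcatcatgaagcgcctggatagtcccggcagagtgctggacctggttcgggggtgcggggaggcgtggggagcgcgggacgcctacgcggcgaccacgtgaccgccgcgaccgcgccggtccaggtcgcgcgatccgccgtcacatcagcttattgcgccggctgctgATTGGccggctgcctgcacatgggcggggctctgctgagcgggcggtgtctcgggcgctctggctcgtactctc
Dhcr7, chr7:143829964-143830263, plus strand: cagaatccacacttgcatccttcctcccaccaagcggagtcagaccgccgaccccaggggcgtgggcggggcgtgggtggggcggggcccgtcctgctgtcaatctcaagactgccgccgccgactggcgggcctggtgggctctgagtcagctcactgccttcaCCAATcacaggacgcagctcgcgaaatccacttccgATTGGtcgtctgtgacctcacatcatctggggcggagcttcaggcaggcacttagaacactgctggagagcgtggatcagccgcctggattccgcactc
The box occurs 3 times in the Hsd17b7 window, in 2 places in that of Dhcr7 and in 1 place in those of Lss and Sc5d.

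Of 22 genes of fatty acid and glycerolipid synthesis, 4 passed the test as lower and none as higher, against 0.496% of all genes called lower, and the median of the list was -0.13. Stearoyl-CoA desaturase 1 (Scd1), which makes monounsaturated fatty acids, had 307, 400.4 and 290.4 in the cHet and 146, 167 and 150.03 in the cKO (-1.09, adjusted p = 0.0252). The elongase Elovl6 had 175, 231 and 206 in the cHet and 105, 95.4 and 106 in the cKO (-0.99, adjusted p = 0.0217). Fads2, a desaturase of polyunsaturated fatty acids, had 187, 261 and 211 in the cHet and 111, 125 and 113 in the cKO (-0.90, adjusted p = 0.0387). Acly, which makes the acetyl-CoA that both lipid pathways draw on, had 192, 225 and 190.1 in the cHet and 120.0, 117 and 137 in the cKO (-0.70, adjusted p = 0.0411). The cHet and cKO nerves did not overlap for 9 members in the lower direction, against 11% of all genes, and for 3 in the higher direction, against 13.4%. Genes of triglyceride assembly did not pass the test, with Dgat1 at 0.10, Dgat2 at 0.18 and Lpin1 at 0.43 in log2. Without cHet replicate 1 the list had 3 calls, of which Elovl6 and Fads2 were among the 4, and it had 0 without any 1 of the other 5 libraries. None of the 18 genes of sphingolipid and galactolipid synthesis passed in limma (median -0.15). At an unadjusted p under 0.05, 4 of them were higher and 4 lower, against 9.07% and 7.4% of all genes. Ugt8a, which makes galactosylceramide, stood at -0.76 in log2 (adjusted p = 0.0657).

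Nfasc was the 1 called gene among 21 tested paranodal and nodal proteins, where 0.496% of all genes were called lower. It encodes neurofascin, whose glial isoform holds the Schwann cell side of the paranodal junction and whose neuronal isoform sits at the node. The values were 139, 165 and 156 in the cHet and 103, 87.1 and 93.9 in the cKO, without overlap (-0.69, 95% confidence interval -0.94 to -0.44, adjusted p = 0.0387, two-sided exact permutation test p = 0.1). The control nerves had 111, 115 and 214, of which replicates 1 and 2 lay below the cHet range and replicate 3 above it. Control replicate 3 was also the library highest in oligodendrocyte markers, and what this means for its Nfasc value was not tested. With all 9 libraries in 1 model the adjusted p of Nfasc was 0.206, and leaving out 1 library at a time gave 0.0597 to 0.173. A cryptic exon in an intron of Nfasc is the subject of the study, and its sequence is shown for that reason, as the study's table of Nfasc exons gives it. It spans 104 bases of the minus strand at chr1:132607987-132608090 (GRCm38.p6), and the capitals at bases 24 to 26 mark the first stop codon in frame with the exon before it. Its use was not measured here, because the table holds 1 value per gene.
Nfasc cryptic exon: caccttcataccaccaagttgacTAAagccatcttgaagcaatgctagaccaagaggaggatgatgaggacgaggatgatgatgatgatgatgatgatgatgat
Among the axonal and cytoskeletal partners of the junction, Cntn1 stood at -0.85 and Cntnap1 at -0.46 in log2 with overlapping groups. Sptbn1, a spectrin, stood at -0.56 (adjusted p = 0.0517) without overlap, as 11% of all genes did in that direction. The median of the list was -0.04. No member of the 16 internodal and juxtaparanodal proteins passed in limma (median -0.12). With an unadjusted p under 0.05, 2 were higher and 3 lower, against 9.07% and 7.4% of all genes. The closest to the threshold, the adhesion molecule Cadm3, had -0.73 with an adjusted p just above it.

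Of 17 genes listed as splicing targets of TDP-43, 3 passed the test, against 1.19% of all genes. At an unadjusted p under 0.05, 3 were higher and 5 lower, against 9.07% and 7.4% of all genes. Nfasc, 1 of the 3 that passed, is in the list through this study, which found its cryptic exon in RNA-seq of sciatic nerves. It is therefore no target known beforehand, while the other members are known from other cells. Synj2bp, a mitochondrial outer membrane anchor, had 22.0, 24.3 and 21.6 in the cHet and 9.72, 10.1 and 11.02 in the cKO (-1.10, 95% confidence interval -1.34 to -0.86, adjusted p = 0.00869). It lies inside a longer gene on the same strand, Gm20498, which was called higher. The sharing of reads within this pair was not tested. Adnp2, a homeobox factor, was higher, with 7.46, 6.90 and 7.39 in the cHet and 11.7, 12.5 and 11.6 in the cKO (0.68, adjusted p = 0.0387), and Nfasc was lower as given above. The other 14 lay between -0.78 (Celf5) and 0.51 (Cemip2), with a median over all 17 of -0.01. Several well-known targets were close to 0, among them Sort1 (0.08), Poldip3 (-0.06) and Eif4h (0.00), which are values of whole genes and not of exons. Of the 12 TDP-43 and related RNA-binding proteins only Tardbp passed, and none of the 32 splicing regulators or the 19 nonsense-mediated decay factors did in limma (medians 0.07 and 0.06, with 3 members each at an unadjusted p under 0.05). The largest difference among the splicing regulators was in Celf1, at 0.96 with an adjusted p of 0.0833.

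Several cytokines of the gp130 receptor family were higher in the cKO. Ligands of this receptor, among them ciliary neurotrophic factor, signal through JAK kinases and STAT3. Of 21 members tested, 4 passed as higher and none as lower, against 0.698% of all genes called higher. At an unadjusted p under 0.05, 7 were higher, against 9.07% of all genes, and the median was 0.26. Cntf, which myelinating Schwann cells make in quantity, had 509, 617 and 591 in the cHet, 1572, 2481 and 1465 in the cKO and 539, 588 and 704 in the control (1.65, adjusted p = 0.0292). It overlaps Zfp91 on the same strand. Clcf1, a ligand of the same receptor as Cntf, had 2.04, 0.969 and 1.58 in the cHet and 5.99, 5.32 and 6.51 in the cKO (1.70, adjusted p = 0.0357). The Clcf1 row holds the same values as that of a second, unnamed gene, so that the pair counts as 1 measurement. Bcl3, a nuclear regulator of NF-kB that STAT3 induces, had 6.90, 5.29 and 6.56 in the cHet and 13.3, 12.1 and 15.9 in the cKO (1.08, adjusted p = 0.0352). The receptor chains and kinases did not pass: Il6st was at 0.26, Lifr at -0.07, Cntfr at -0.14 and Jak1 at 0.01. Stat3 (0.49, adjusted p = 0.160), Osmr (0.75, adjusted p = 0.0700) and the feedback inhibitor Socs3 (1.06, adjusted p = 0.0691) were above 0 without overlap between the groups, as 13.4% of all genes were. The list had 1 call without cHet replicate 1 or without cKO replicate 2, and 0 without any 1 of the other 4 libraries.

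The AP-1 and immediate early genes respond first to stress and growth signals. Of 21 members tested, 18 were positive and 11 had an unadjusted p under 0.05 as higher, as 9.07% of all genes had, and 2 passed the adjusted test as higher, against 0.698%. Junb had 11.6, 9.25 and 8.91 in the cHet and 30.4, 42.5 and 26.6 in the cKO (1.67, adjusted p = 0.0197). For Fos the values were 9.02, 7.61 and 8.28 in the cHet and 17.2, 20.0 and 15.5 in the cKO (1.03, adjusted p = 0.0242), and control replicate 3, at 14.8, was close to the cKO range of 15.5 to 20.0. Jun, the AP-1 factor that directs the repair program of Schwann cells, was at 0.33 (adjusted p = 0.243) and Atf3 at -0.25. The median of the list was 0.35, and 0.20 with libraries rescaled to the same sum.

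Secreted proteins of injured nerve gave 3 higher and 1 lower call among 21 tested, against 0.698% and 0.496% of all genes, with a median of 0.07. At an unadjusted p under 0.05, 6 were higher and 1 lower, against 9.07% and 7.4% of all genes. Beside Timp1 and Serpina3n, osteopontin (Spp1), a matrix cytokine, had 166, 106 and 147 in the cHet, 351, 389 and 393 in the cKO and 161, 157 and 114 in the control (1.46, adjusted p = 0.0199). Vegfa, the growth factor of vessels, went the other way. It had 60.4, 62.1 and 61.4 in the cHet, a range of less than 2, and 30.6, 30.3 and 33.6 in the cKO (-0.95, 95% confidence interval -1.14 to -0.76, adjusted p = 0.00579), and 93.3, 57.3 and 66.7 in the control. Immature and repair Schwann cell genes had 2 higher calls, Shh and Gfap, and 1 lower among 19 tested, with a median of 0.33. Over all genes these shares were 0.698% and 0.496%. Of the 19, 13 were positive, and at an unadjusted p under 0.05 there were 8 higher and 1 lower, against 9.07% and 7.4% of all genes. The lower gene was Cdh2, N-cadherin, which joins Schwann cells of the immature nerve, with 36.8, 39.2 and 33.0 in the cHet and 17.7, 21.2 and 20.4 in the cKO (-0.86, adjusted p = 0.0250). The other 16 did not pass. Of these, Ucn2 (1.34), Btc (1.24), Tnc (0.95), Hmga2 (0.61), Egfl8 (0.59) and Jun were above 0 without overlap between the groups, as 13.4% of all genes were. Ngfr was at -0.08, Sox2 at -0.29 and Gap43 at -0.09. Gfap and Cdh2 are also the 2 called members of the 14 non-myelinating Schwann cell genes. Of 13 chemokines and macrophage growth factors tested Cxcl10 passed, and none of the 18 macrophage markers did in limma (2 at an unadjusted p under 0.05, median 0.11, or -0.03 with libraries rescaled to the same sum). The 21 interferon-stimulated genes had no call in limma and a median of -0.22, with 3 at an unadjusted p under 0.05, against 16.5% of all genes.

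Single genes were called in several other lists, where 1.19% of all genes were called. In the Hippo pathway list of 16, Tnfrsf12a, the receptor of the cytokine TWEAK, had 15.8, 15.7 and 12.9 in the cHet and 50.1, 59.6 and 56.9 in the cKO (1.87, adjusted p = 0.00288), while the list had a median of -0.05. Among 22 cytoskeleton and actin regulators, Rai14, an ankyrin-repeat protein of actin filaments, had 33.1, 37.9 and 35.9 in the cHet and 149, 131 and 141 in the cKO, a 3.95-fold higher mean (1.97, adjusted p = 0.00143), and Ttll6 was lower as given above. Both Tnfrsf12a and Rai14 were called in all 6 fits that left out 1 library and without both libraries high in neuron markers. Of 18 p53 targets, Plk3, a polo-like kinase, passed with 4.61, 5.01 and 5.46 in the cHet and 9.57, 8.92 and 8.91 in the cKO (0.80, adjusted p = 0.0392). All 13 mitochondrial-encoded transcripts were above 0, 12 without overlap (13.4% of all genes were apart as higher). Of the 13, 6 had an unadjusted p under 0.05, against 9.07% of all genes as higher. The median of 0.61 became 0.13 with quantile normalization. The 1 that passed, narrowly, was mt-Nd2 (adjusted p = 0.0498), with 2930.0, 2602 and 2556 in the cHet and 5624, 5226 and 6256 in the cKO. Its control values were 4108, 2809.7 and 1681, of which replicate 1 lay between the groups. The 13 summed to 119557, 121097 and 125866 in the cKO, to 90147, 79112 and 77845 in the cHet and to 113286, 91221 and 58940 in the control. No call was made by limma in 4 further lists. Over all genes tested, 16.5% had an unadjusted p under 0.05. Of the 24 genes of the unfolded protein and integrated stress response 2 had an unadjusted p under 0.05 (median 0.12), of 15 genes of necroptosis and cell death 1 had (median -0.02), of 18 genes of cell division 0 (median -0.10), and of 21 collagens, laminins and basement membrane proteins 1 (median -0.12).

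With libraries rescaled to the same sum the medians of the lists of secreted injury proteins, stress response, nonsense-mediated decay, splicing regulators, lineage factors and non-myelinating Schwann cell genes turned negative (the last 3 also with quantile normalization), while those of the cholesterol, gp130, AP-1, repair and chemokine lists kept their sign under each of the 3 other scalings.

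**Figure D5:**
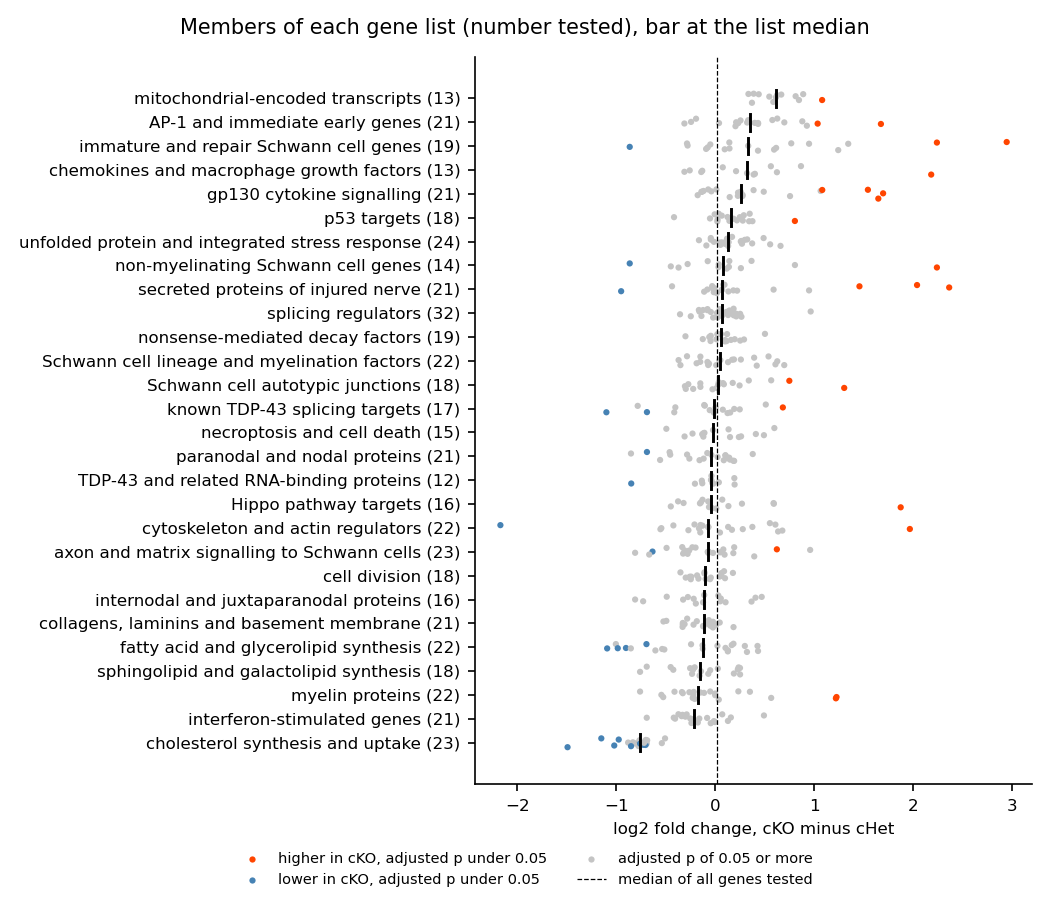
Log2 fold change (cKO minus cHet) of every tested member of 28 gene lists, with a black bar at the list median and a dashed line at the median of all genes tested (0.02). The cholesterol list stands at -0.76 with no member above 0, and the colored points show that no other list has more than 4 members called.

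Most myelin protein genes did not pass the test. Of 22 genes in the list of myelin proteins, 2 passed, both as higher, against 0.698% of all genes called higher, and the median was -0.18. Pmp2, which binds fatty acids in the myelin of peripheral nerve, had 1531, 1840.2 and 1545 in the cHet, 3649, 4171 and 3602 in the cKO and 1509, 1647 and 1130.2 in the control (1.22, adjusted p = 0.0277). It overlaps a predicted gene on the same strand. Lgals3, galectin-3, which Schwann cells and macrophages use in clearing myelin, had 31.0, 29.4 and 27.2 in the cHet and 68.9, 67.5 and 70.1 in the cKO (1.22, adjusted p = 0.00317), while the 18 macrophage markers summed to 573 to 754 in the cHet and 638 to 876 in the cKO, and the part of those cells in the Lgals3 value was not tested. The structural protein Pmp22 was at -0.22 with overlapping groups. Mbp was at -0.54 (95% confidence interval -1.41 to 0.32) without overlap, as 11% of all genes were in that direction. No factor of the 22 in the lineage and myelination list passed in limma. At an unadjusted p under 0.05, 6 of them were higher and 1 lower, against 9.07% and 7.4% of all genes. Sox10 was at 0.05 and Egr2, the master regulator of myelination, at 0.54 (adjusted p = 0.222).

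Junction and polarity genes included 2 increases, where 0.698% of all genes were called higher. Schwann cells bind their own membrane turns together with adherens and tight junctions, called autotypic junctions. Of 18 such genes, Pard3, a polarity protein that gathers at the Schwann cell-axon contact, had 13.4, 12.5 and 12.3 in the cHet, 33.3, 30.1 and 33.2 in the cKO and 11.7, 12.6 and 11.6 in the control (1.30, adjusted p = 0.00344), and was called in all 6 fits that left out 1 library but not without both libraries high in neuron markers. Cdh1, E-cadherin, the main autotypic adhesion molecule, had 53.7, 60.5 and 54.3 in the cHet and 92.4, 90.6 and 101 in the cKO (0.75, adjusted p = 0.0199). The list's median was 0.03, and -0.10 with libraries rescaled to the same sum. The 23 genes of axon and matrix signaling to Schwann cells (median -0.08) had 1 higher and 1 lower call, against 0.698% and 0.496% of all genes. Itga7, a laminin receptor subunit, was higher with 89.0, 72.3 and 75.7 in the cHet and 123, 125 and 117 in the cKO (0.62, adjusted p = 0.0461). Adgrg6 (Gpr126), the adhesion receptor that starts myelination, was lower with 29.5, 31.3 and 30.6 in the cHet and 20.5, 19.1 and 18.8 in the cKO (-0.63, adjusted p = 0.0268), against 24.9, 23.6 and 24.9 in the control, which lay between the groups.

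The smallest p of the comparison belonged to Ppp6c, the catalytic subunit of protein phosphatase 6. It had 42.9, 42.8 and 43.3 in the cHet, 169.6, 169 and 155 in the cKO and 45.2, 52.7 and 44.8 in the control, a 3.82-fold higher mean than in the cHet (1.92, 95% confidence interval 1.74 to 2.10, adjusted p = 0.00101). Sema3g, a secreted semaphorin, had 18.5, 22.6 and 26.9 in the cHet and 76.5, 85.3 and 77.7 in the cKO (1.81, adjusted p = 0.00515). Fam135a had 18.2, 17.3 and 16.4 in the cHet and 39.0, 37.7 and 39.3 in the cKO (1.14, adjusted p = 0.00371), and Tpcn2, a calcium channel of lysosomes, had 12.7, 13.5 and 13.5 in the cHet and 29.8, 28.4 and 29.7 in the cKO (1.12, adjusted p = 0.00381). These 4 genes were called in all 6 fits that left out 1 library, and of them Ppp6c and Sema3g also without both libraries high in neuron markers. For each of them the 3 control values lay nearer to the cHet than to the cKO mean.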

How the data were processed

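RNA from sciatic nerves was sequenced by the authors as paired-end reads (TruSeq, HiSeq4000). The signal values the authors deposited are normalized TPM per gene, 36121 genes in 9 libraries; kallisto 0.44.0 and sleuth 0.30.0 stand in the submitters' notes with GRCm38, and how the values were scaled further, their strandedness and the annotation release were not found in the sources consulted. The values are not counts, so that reads per gene and counting error are unknown, and no precision from depth can be given.

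Groups came from sample titles, each with 3 mice. Where several genes share a symbol, that with the highest mean stands for it. Genes whose mean reached 1 over the 6 cKO and cHet libraries were tested with limma 3.58.1 (R 4.3.3) on log2(value + 0.5), with a mean-variance trend and Benjamini-Hochberg adjustment, at 0.05; fold changes are on that scale and understate low genes. The p-values measure the spread between mice. Single genes were also tested by exact permutation. Tested on simulated data with 200 changed genes among 14909, the model of this comparison called 156 genes, of which 12 were unchanged, and found 56% of changes of 1 and 88% of changes of 2 in log2. Alternatives were the 9-library model, other pseudocounts, filters, scalings and variance models, sex as a covariate and the removal of libraries.

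The members and the 40 gene lists were chosen with earlier results of these data known. Named were Tardbp, Nfasc and Cnp, the 15 largest increases and the 15 largest decreases among called genes without overlap, predicted genes left out, and up to 4 called members per list with the smallest p. Genes named beyond this rule were chosen after their values were seen. They are the Schwann cell markers, the cholesterol genes other than Lss and Stard4, Ppp6c, Sema3g, Fam135a, Tpcn2, Srebf2, members of lists given as not passing, and the predicted and overlapping genes of the closing section. The values of some genes are not reported here.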

Additional observations from a re-analysis of the deposited data

How the results depend on the processing

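All 178 genes kept their direction under each of the 20 alternatives in which they were tested, while the number of calls moved. Except under the other scalings and with groups from the genotype field, that direction was fixed in advance. The groups did not overlap and were balanced for sex. Against 104 higher and 74 lower, the counts were 35 and 16 without a filter on low values, 35 and 13 with sex as a covariate, and 281 and 244 with array weights. The lower count was 116 with all 9 libraries, 172 after rescaling to the same sum, 42 with median of ratios scaling, 115 with quantile normalization and 45 without the variance trend. The share of calls that were higher was 58.4% in the fit reported, 34.6% after rescaling, 49.1% with quantile normalization, 67.2% with median of ratios, 68.6% without a filter, 72.9% with sex and 67.2% without the trend. Without the 2 libraries high in neuron markers 12 genes were higher and 3 lower. Without the 3 libraries whose genotype field differs 18 were higher and 0 lower in limma (3059 genes at an unadjusted p under 0.05), and with groups from that field 111 and 4. Leaving out 1 library at a time gave 18 to 56 higher and 2 to 37 lower.

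Of the cholesterol list, 10 genes were called in the fit reported, 18 with 9 libraries, 21 after rescaling, 20 with quantile normalization, 21 with array weights, 3 with median of ratios, 2 without the trend, 1 with sex, 0 without a filter, 0 without the libraries high in neuron markers, 0 without those whose genotype field differs, 0 with groups from that field, and 0 to 6 with 1 library left out.

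The adjusted p of Tardbp was 0.101 without the libraries high in neuron markers, 0.0875 without those whose genotype field differs, 0.999943 with groups from that field, and 0.0314 to 0.0777 with 1 library left out. For Nfasc it was 0.206 with 9 libraries, 0.0842 without a filter, 0.0631 with median of ratios, 0.0988 with sex, 0.0735 without the trend, 0.141 and 0.0934 without those 2 sets of libraries, 0.999943 with groups from the field, and 0.0597 to 0.173 with 1 library left out. Of the other 59 named genes, 15 to 35 kept their side of the threshold with 1 library left out, 11 without the libraries high in neuron markers, 23 without a filter, 26 with sex and 1 (Cnp, not called in any) without the libraries whose genotype field differs or with groups from that field, and none changed direction under any alternative. For the called genes among them that direction was fixed in advance, except under the other scalings and with groups from that field. The cause of the changes in calls was not tested. No paired analysis was possible because the titles carry no replicate numbers shared by the groups. The paper states that it grouped age-matched mice of the genotypes into sets by litter or by close dates of birth. The titles do not say which libraries formed such a set, and the test ignored any matching.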

Other observations

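Predicted genes and genes without a symbol made up 14 of the 178 called, 11 higher and 3 lower. The largest log2 fold change of all called genes, 3.74, belonged to 1810010D01Rik, with 3.78, 2.24 and 2.40 in the cHet, 36.6, 48.5 and 44.1 in the cKO and 3.06, 3.96 and 3.33 in the control. It lies within Tpcn2 on the same strand (minus strand of chromosome 7, 145205825 to 145208119, GRCm38), and both were higher in the cKO. Gm6916 had 4.02, 5.88 and 4.22 in the cHet and was listed at 0 in all 3 cKO nerves. Gm13246 and Gm4529 went the other way and were listed at 0 in all 3 cHet nerves. The cKO values were 2.04, 3.59 and 4.81 for Gm13246 and 2.60, 2.78 and 4.85 for Gm4529.

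Synj2bp, called lower, lies inside the longer annotated gene Gm20498, which was called higher. Gm20498 had 17.6, 17.9 and 15.7 in the cHet and 31.5, 50.1 and 38.3 in the cKO (log2 fold change 1.18, adjusted p = 0.0365), so that the values of this pair moved in opposite directions in every cKO nerve. Of the 178 called genes 54 overlap another gene of the table, 24 of them on the same strand and 34 on the opposite strand, and the sharing of reads within such pairs was not tested. Cela1, an elastase, and Galnt6, a glycosyltransferase, lie 3892 bp apart on the minus strand of chromosome 15 and were both called higher, with log2 fold changes of 1.57 and 1.07.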
